A study of Mus musculus with 12 samples.

Results

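The glycolysis, glycogen and pentose phosphate genes described here are 34 genes, chosen by name from the 29737 genes of the deposited count table. All 34 were in the table, and all 34 passed the filter on low counts, which left 16761 genes to test. They cover glucose uptake (Slc2a1, Slc2a3), hexose phosphorylation (Hk1, Hk2, Hk3), the upper part of glycolysis down to the triose phosphates (Gpi1, Pfkl, Pfkp, Pfkm, Aldoa, Aldoc, Tpi1) and the enzymes of fructose 2,6-bisphosphate (Pfkfb3, Pfkfb4). They further cover the lower part of glycolysis (Gapdh, Pgk1, Pgam1, Eno1, Pkm), lactate and pyruvate handling (Ldha, Slc16a1, Slc16a3, Pdk1, Pdk3), glycogen (Pygl, Gys1, Gbe1), and the oxidative (G6pdx, H6pd, Pgls, Pgd) and non-oxidative (Tkt, Taldo1, Rpia) branches of the pentose phosphate pathway.

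Wild-type mouse neutrophils, collected from bone marrow and bead-sorted for the surface protein Ly6G, were kept in culture for 24 h in RPMI medium with fetal bovine serum. The vehicle PBS was compared with 3 conjugated primary bile acids, namely taurocholic acid (TCA, 200 μM), glycocholic acid (GCA, 200 μM) and tauro-β-muricholic acid (Tβ-MCA, 10 μM in the sample labels). The study's methods give another dose for Tβ-MCA, so Tβ-MCA was not tested against TCA or GCA. Each of the 4 groups held 3 samples, numbered 3, 5 and 6 for PBS and 3, 4 and 5 for each bile acid, and values are listed in that order below. The labels do not say whether samples came from separate mice, so p-values measure the spread between these samples, which may be technical.

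Neutrophils hold few mitochondria and make most of their ATP by glycolysis, with glycogen as an internal store of glucose that can be used where glucose is scarce. The oxidative branch of the pentose phosphate pathway makes NADPH, which feeds the NADPH oxidase of the respiratory burst and the systems that protect the cell from its own oxidants. Hexokinase, phosphofructokinase and pyruvate kinase catalyse the steps of glycolysis that are close to irreversible, and pyruvate dehydrogenase kinases keep pyruvate away from the mitochondria.

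The promoters shown here belong to Pfkl and Pdk1, which were higher, and to Hk3, which was lower, with Tβ-MCA. They are RefSeq sequences of GRCm38.p6, written 5′ to 3′ on the strand of the gene, and end 1 base before the annotated start of transcription. The Pfkl stretch lies at chr10:78009808-78010004 on the minus strand, where the rest of the window is an annotated exon. It lies inside the deposited Pfkl gene model, which begins further 5′, at 78010083. The Pdk1 stretch lies at chr2:71872974-71873223 on the plus strand, and the Hk3 stretch at chr13:55021386-55021635 on the minus strand. Capitals mark the core letters of a HIF site, which are ACGTG or GCGTG on either strand. HIF is a hypoxia-regulated activator known for its glycolytic target genes.
Pfkl: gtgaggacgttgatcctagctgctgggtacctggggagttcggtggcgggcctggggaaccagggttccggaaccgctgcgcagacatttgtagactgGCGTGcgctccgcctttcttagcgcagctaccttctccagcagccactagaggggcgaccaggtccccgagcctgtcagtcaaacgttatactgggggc
Pdk1: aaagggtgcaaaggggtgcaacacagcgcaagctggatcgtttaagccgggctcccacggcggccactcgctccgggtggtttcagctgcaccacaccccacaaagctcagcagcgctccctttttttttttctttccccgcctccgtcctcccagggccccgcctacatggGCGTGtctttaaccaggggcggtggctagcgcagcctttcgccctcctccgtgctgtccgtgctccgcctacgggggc
Hk3: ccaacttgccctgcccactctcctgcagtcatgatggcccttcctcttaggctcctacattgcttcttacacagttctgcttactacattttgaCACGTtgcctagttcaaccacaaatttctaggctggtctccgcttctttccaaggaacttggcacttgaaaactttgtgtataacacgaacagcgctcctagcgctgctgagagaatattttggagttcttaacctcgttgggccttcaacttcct
Pfkl and Pdk1 each hold 1 match to GCGTG, and Hk3 holds 1 match to ACGTG, read on the other strand. Within 250 bases before the start, either core was present in 38.6% of 27025 promoters, taking for each gene the start farthest 5′. It was present in 25 of the 33 members with a promoter sequence, taking the start nearest the 5′ end of the deposited gene model. The start was thus picked by unlike rules. The GC content of these windows had a median of 60% for the members and 52.0% for all promoters, and the windows were not matched for it. No core was found within 250 bases before the Pkm start, where 208 of the bases belong to an annotated Pkm exon. The E-box CACGTG, which contains ACGTG, was present in 3 of the 33 members and in 6.04% of all promoters. The matches describe letters and were not tested for binding.

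Between 32757389 and 41375925 reads were counted per sample, and the 34 members held 1.11% to 1.18% of them. All 12 neutrophil markers checked were detected, among them Ly6g, S100a8 and Cxcr2, and they summed to 51320 to 63368 CPM (counts scaled to a common library size, with edgeR's TMM factors) with PBS. Markers of other cells were lower, with 3285 to 3751 CPM for 12 monocyte and macrophage genes, 144 to 255 CPM for 6 eosinophil genes and at most 56.9 CPM for 7 B cell genes with PBS. The 8 erythroid genes summed to at most 3.60 CPM in any sample. The root mean square log2 deviation of a library from the other replicates of its group, over all genes tested, was highest in Tβ-MCA replicate 5 (0.481) and lay between 0.349 and 0.463 in the other 11.

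Levels between genes were compared by the deposited RPKM, which are counts scaled by exon length and by library size, and differences between samples were compared by CPM. Over the 12 samples, the member with the highest mean RPKM was Pygl, the glycogen phosphorylase that releases glucose 1-phosphate, with 394 RPKM (range 379 to 411). Taldo1 (transaldolase, 295 RPKM), Pkm (pyruvate kinase, 291 RPKM), Gpi1 (glucose 6-phosphate isomerase, 239 RPKM) and Aldoa (aldolase, 210 RPKM) followed. Pygl lay at the 99.4th percentile of the genes tested, and 16 of the 34 members lay above the 90th. Of those in the lower range, Pdk1 (0.926 RPKM), Pfkm (0.817 RPKM), Slc16a1 (0.768 RPKM) and Aldoc (0.290 RPKM) had the lowest means, and Aldoc had 22 counts in its lowest sample.

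**Figure D1:**
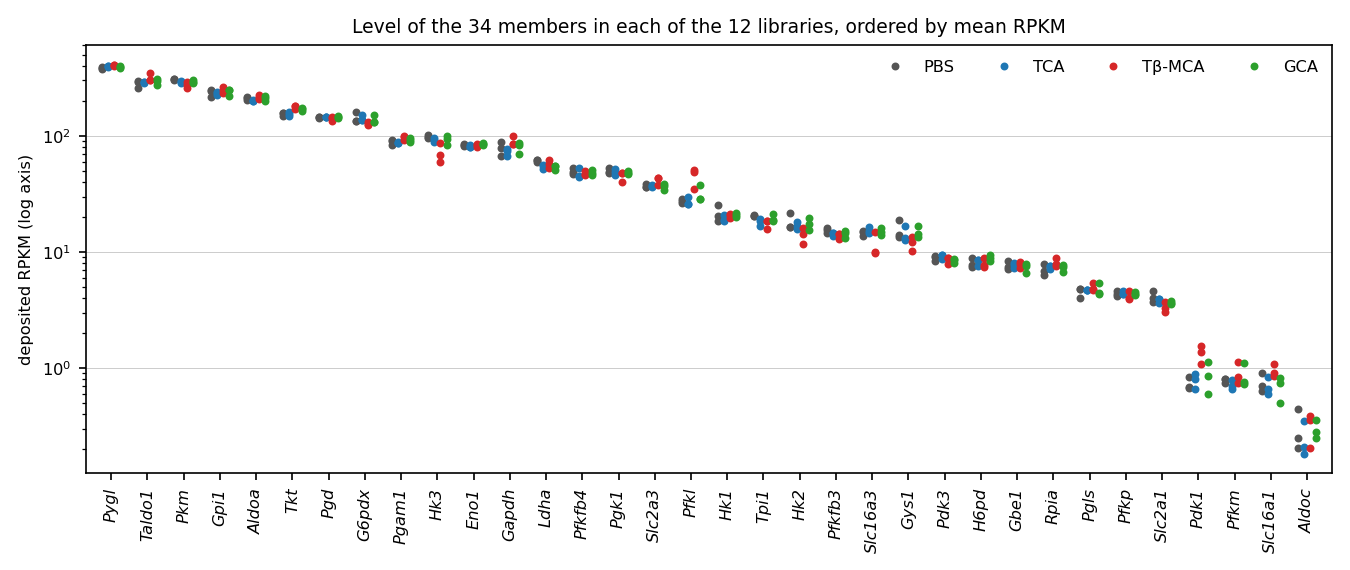
Deposited RPKM of the 34 members on a log axis, with 1 point for each of the 12 libraries, coloured by group, and genes ordered by mean RPKM. Pygl is highest at 379 to 411 RPKM and Aldoc lowest, and the Tβ-MCA points of Pfkl and Pdk1 lie above, and those of Hk3 below, the PBS points.

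Among the members that share 1 step, a single gene held most of the RPKM. Hk3 held 71.3% ± 2.70 (SD, n = 3) of the hexokinase RPKM with PBS, against 15.5% ± 1.5 for Hk1 and 13.2% ± 1.26 for Hk2. Pfkl, the liver-type phosphofructokinase, held 84.2% ± 0.785, Pfkp 13.4% ± 0.787 and the muscle-type Pfkm 2.41% ± 0.0282. Slc2a3 (GLUT3) held 90% ± 1.23 of the summed RPKM of Slc2a1 and Slc2a3, and Slc16a3 (MCT4), a lactate exporter, 95.2% ± 0.674 of that of Slc16a1 and Slc16a3.

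The comparison of Tβ-MCA with PBS asked which of these genes differed after 24 h with the bile acid. Pfkl and Pdk1 rose, Hk3 and Pkm fell, and the other 30 members did not pass the test, which was edgeR's quasi-likelihood test with a Benjamini-Hochberg adjusted p under 0.05 over all genes. In these bulk samples, fewer cells of a type and less RNA per cell cannot be told apart. The 4 members called are 11.8% of 34, beside 7.62% of all genes tested. The 2 higher members stand beside 4.44% of all genes called higher, and the 2 lower members beside 3.18% of all genes called lower. No member passed the study's cutoff of an unadjusted p under 0.05 and a 2-fold change, which 2.95% of all genes passed. The median log2 fold change was -0.05 over the members and 0.00411 over all genes.

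Pfkl encodes the main phosphofructokinase of these cells and lies at chr10:77986947-78010083, and its exons overlap no other gene of the table. It was at 125, 127 and 116 CPM with PBS and at 221, 207 and 152 CPM with Tβ-MCA. All 3 Tβ-MCA samples lay above all PBS samples, with replicate 5 the lowest of them. The log2 fold change was 0.66 ± 0.13 (SE; 95% interval 0.37 to 0.94), a 1.58-fold higher level (edgeR, adjusted p = 0.0211). With TCA the values were 133, 114 and 113 CPM, and with GCA 128, 162 and 126 CPM, of which GCA replicate 4 alone exceeded the lowest Tβ-MCA sample. Pfkp was at 43.9, 39.6 and 40.8 CPM with PBS and at 35.8, 36.5 and 42.6 CPM with Tβ-MCA, and the groups overlapped. Pfkm was at 2.44, 2.41 and 2.21 CPM with PBS and at 2.15, 3.21 and 2.46 CPM with Tβ-MCA, also overlapping. The Pfkl share of the phosphofructokinase RPKM was 86.6% to 91.7% with Tβ-MCA and 83.8% to 85.1% with PBS, which did not overlap. In GCA replicate 4 it was 87.5%. The share is computed from the same Pfkl values and adds no separate support.

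Pdk1, which encodes a kinase that switches off pyruvate dehydrogenase, lies at chr2:71873224-71903858 and has a low level. It was at 5.33, 6.53 and 5.31 CPM with PBS and at 10.5, 11.7 and 8.32 CPM with Tβ-MCA, and the groups did not overlap. The log2 fold change was 0.83 ± 0.19 (SE; 95% interval 0.43 to 1.24), a 1.78-fold higher level (edgeR, adjusted p = 0.0251). TCA gave 5.33, 6.89 and 6.20 CPM, and GCA gave 4.73, 8.50 and 6.66 CPM. Replicate 4 was again the highest GCA sample and lay within the Tβ-MCA range. Pdk3, the more abundant kinase of the same family, had a log2 fold change of -0.11 ± 0.08 with Tβ-MCA (edgeR, adjusted p = 0.46).

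Hk3, the most abundant hexokinase here, lies at chr13:55005985-55021385. It was at 382, 363 and 350.1 CPM with PBS and at 213, 243 and 318 CPM with Tβ-MCA, and the groups did not overlap. The log2 fold change was -0.50 ± 0.12 (SE; 95% interval -0.76 to -0.24), which is 0.706 of the PBS level (edgeR, adjusted p = 0.0307). TCA gave 362, 341 and 322 CPM, and GCA gave 374, 303 and 348 CPM. Hk2, the inducible hexokinase of many tissues, was at 133, 99.4 and 98.9 CPM with PBS and at 84.0, 67.8 and 95.4 CPM with Tβ-MCA. The groups did not overlap, but the difference did not pass (log2 fold change -0.42 ± 0.15; edgeR, adjusted p = 0.103). Hk1 was at 223, 174 and 159 CPM with PBS and at 175, 163 and 180.0 CPM with Tβ-MCA, within the PBS range (log2 fold change -0.10 ± 0.10). With TCA and GCA, Hk2 ranged from 89.6 to 119 CPM and Hk1 from 157 to 187 CPM.

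Pkm, which encodes pyruvate kinase of the M type, lies at chr9:59656368-59679375, and 1 other gene of the table, RP23-320D23.6, overlaps its exons on the same strand. Pkm was at 1594, 1558 and 1522 CPM with PBS and at 1264, 1325 and 1429 CPM with Tβ-MCA, and the groups did not overlap. The log2 fold change was -0.22 ± 0.06 (SE; 95% interval -0.35 to -0.09), which is 0.860 of the PBS level (edgeR, adjusted p = 0.046). TCA gave 1483, 1488 and 1410.1 CPM, and GCA gave 1453, 1415 and 1529 CPM. When counts were scaled by the total library size, Pkm no longer passed (edgeR, adjusted p = 0.076) and Tkt, a transketolase, was called higher.

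**Figure D2:**
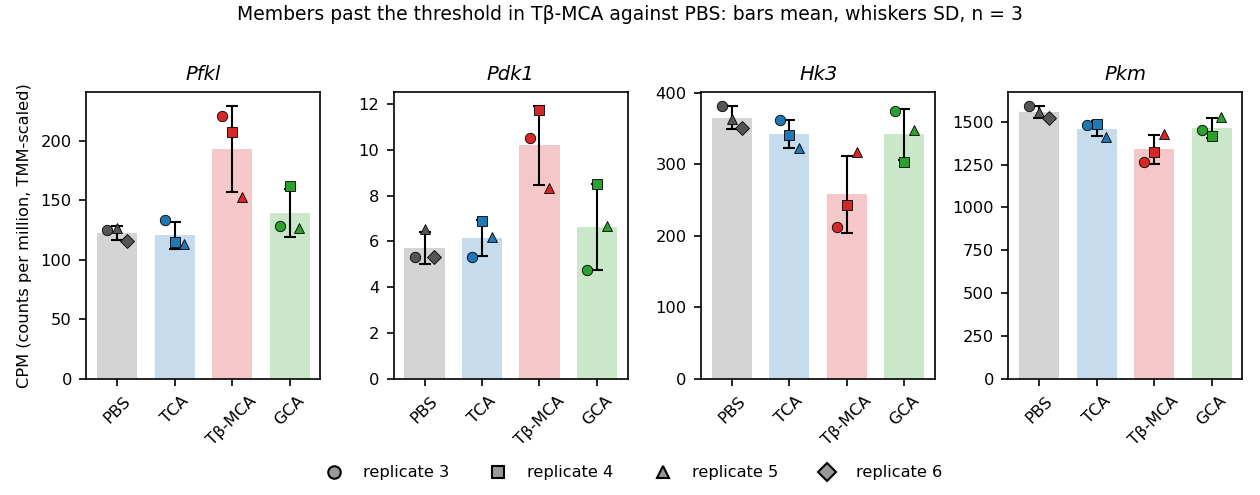
CPM of Pfkl, Pdk1, Hk3 and Pkm in the 12 libraries, with 1 panel per gene, bars for the mean, whiskers for the SD (n = 3) and a marker shape for each replicate number. The 3 Tβ-MCA points lie above the PBS points for Pfkl and Pdk1 and below them for Hk3 and Pkm, with replicate 5 nearest to PBS in each.

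These calls depended on single libraries. Without Tβ-MCA replicate 5, 9 members were called (2 higher, 7 lower), beside 18.0% of all genes in that fit. The 5 added were Slc2a1, Hk2, Tpi1, Pfkfb3 and Slc16a3, all lower. Without PBS replicate 3, PBS replicate 5, PBS replicate 6, Tβ-MCA replicate 3 or Tβ-MCA replicate 4, no member was called by edgeR. In 4 of these fits no gene of the table was called, and without PBS replicate 6 0.981% of all genes were, so the loss covers all genes. In the same order, 13, 13, 12, 9 and 11 members were at an unadjusted p under 0.05, beside 21.0%, 20.3%, 22.1%, 17.6% and 16.8% of all genes. Over these 6 fits, the log2 fold change ranged from 0.55 to 0.80 for Pfkl, from 0.72 to 0.96 for Pdk1, from -0.68 to -0.38 for Hk3 and from -0.27 to -0.18 for Pkm. DESeq2 on all samples called 9 members, the same 9 as edgeR without Tβ-MCA replicate 5, beside 11.9% of all genes called by DESeq2. Of all genes called, 58.3% were higher with TMM scaling and 71.9% with total library size, and of the members 2 of 4 and 3 of 4.

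At an unadjusted p under 0.05 were 14 members (41.2%), beside 24.9% of all genes, and 14 members did not overlap between the groups, beside 27.0% of all genes. The 10 that were not called included Slc2a1, Hk2, Tpi1, Pfkfb3, Pgk1, Ldha, Slc16a3, Gys1 and G6pdx with negative log2 fold changes of -0.42 to -0.14, and Tkt with 0.15. Their adjusted p in edgeR's test lay between 0.0535 and 0.168.

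**Figure D3:**
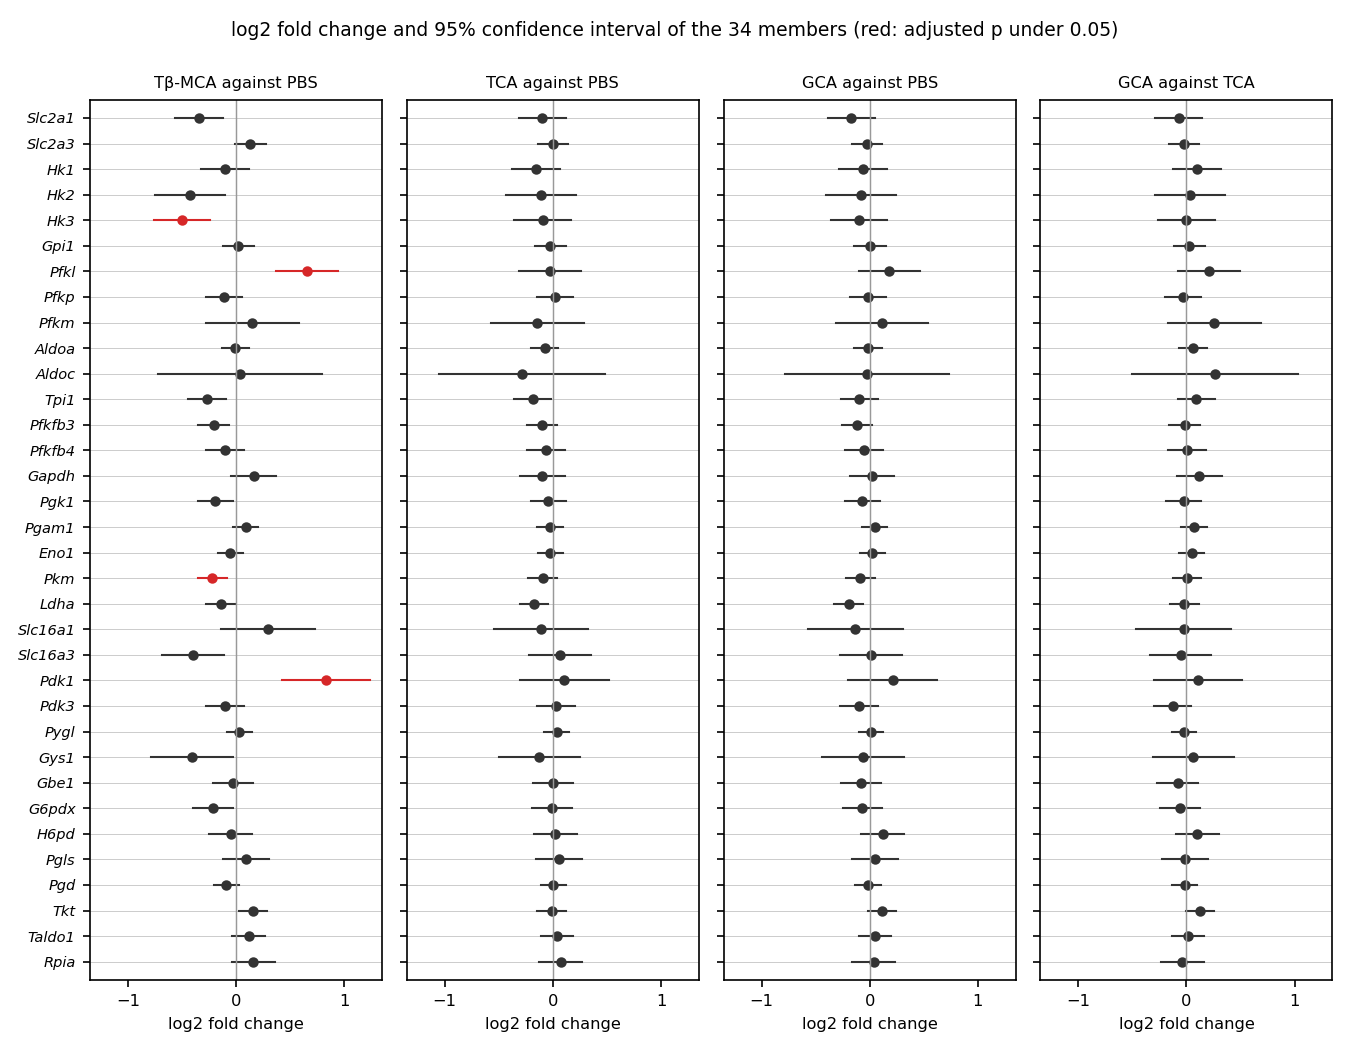
log2 fold change (points) and 95% confidence interval (lines) of the 34 members in 4 comparisons, from edgeR's quasi-likelihood test, with members past the adjusted threshold in red. With Tβ-MCA, Pfkl and Pdk1 lie to the right and Hk3 and Pkm to the left of 0, and no member is red in the other 3 panels.

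Glucose transport was described by Slc2a3 and Slc2a1. Slc2a3, the high-affinity transporter, was at 284, 263 and 263 CPM with PBS and at 309, 306 and 272 CPM with Tβ-MCA, and the groups overlapped (log2 fold change 0.13 ± 0.07; edgeR, adjusted p = 0.224). Slc2a1 (GLUT1) ranged from 13.3 to 16.2 CPM with PBS and from 10.2 to 12.7 CPM with Tβ-MCA. Its log2 fold change of -0.34 ± 0.10 missed the threshold (edgeR, adjusted p = 0.0535). Slc2a3 ranged from 252 to 281 CPM with TCA and GCA, and Slc2a1 from 12.3 to 13.8 CPM.

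Of the other enzymes of upper glycolysis, Gpi1 was at 1421, 1628 and 1573 CPM with PBS and at 1485, 1634 and 1568 CPM with Tβ-MCA. The groups overlapped, as did those of Aldoa and Aldoc. Tpi1, triose phosphate isomerase, ranged from 56.7 to 58.2 CPM with PBS and from 42.9 to 50.5 CPM with Tβ-MCA (log2 fold change -0.27 ± 0.08; edgeR, adjusted p = 0.0576). Pfkfb3 and Pfkfb4 make and break down fructose 2,6-bisphosphate, an activator of phosphofructokinase. Pfkfb3 was at 125, 112 and 116 CPM with PBS and at 96.5, 104 and 106 CPM with Tβ-MCA, without overlap (log2 fold change -0.20 ± 0.07; edgeR, adjusted p = 0.0728). Pfkfb4, the more abundant, was at 264, 233 and 237 CPM with PBS and at 239, 218 and 225 CPM with Tβ-MCA, with overlap.

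In lower glycolysis and lactate handling, Ldha was the gene whose bile acid samples all lay under the PBS samples. Ldha, the A subunit of lactate dehydrogenase, was at 200.1, 208 and 204 CPM with PBS and at 170.0, 198 and 186 CPM with Tβ-MCA. It was at 175, 182 and 185 CPM with TCA and at 171, 179.8 and 184 CPM with GCA. The comparisons share the PBS samples, and none passed (log2 fold changes -0.14 ± 0.06, -0.17 ± 0.06 and -0.20 ± 0.06 for Tβ-MCA, TCA and GCA; edgeR, adjusted p = 0.168, 1 and 0.999). Slc16a3 was at 75.1 to 81.6 CPM with PBS and at 50.6, 51.4 and 77.2 CPM with Tβ-MCA, where replicate 5 lay within the PBS range (log2 fold change -0.40 ± 0.13; edgeR, adjusted p = 0.0821). Gapdh, Pgam1 and Eno1 overlapped between Tβ-MCA and PBS, and Pgk1 did not (log2 fold change -0.19 ± 0.08; edgeR, adjusted p = 0.132). Transcripts of Gapdh are near-identical to those of 89 other genes of the table, which together held 16.5% as many counts as Gapdh. For Pfkm, of upper glycolysis, such genes held 54.1% as many counts, for Pgam1 16.3%, for Eno1 10.0% and for Pgk1 7.34%.

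Among the glycogen genes, the samples of the 4 groups lay close together for Pygl. It was at 1486, 1471 and 1509.9 CPM with PBS, at 1561, 1499.9 and 1515 CPM with TCA, at 1542, 1520.0 and 1503 CPM with Tβ-MCA and at 1522, 1483 and 1496 CPM with GCA. The 95% interval of its log2 fold change was -0.08 to 0.14 with Tβ-MCA, and its SD within PBS was 1.33% of the mean, the smallest among the members. Gys1, the glycogen synthase measured here, ranged from 64.4 to 91.6 CPM with PBS and from 46.9 to 64.0 CPM with Tβ-MCA (log2 fold change -0.41 ± 0.17; edgeR, adjusted p = 0.166). Gbe1, the branching enzyme, overlapped between the groups.

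In the pentose phosphate pathway, G6pdx catalyses the first and committed step. It was at 505, 420.3 and 413 CPM with PBS, at 484, 424 and 422 CPM with TCA, at 374, 379.6 and 399 CPM with Tβ-MCA and at 469.8, 397 and 411 CPM with GCA. Tβ-MCA did not overlap PBS, and replicate 3 was the highest sample with PBS, TCA and GCA (log2 fold change with Tβ-MCA -0.22 ± 0.09; edgeR, adjusted p = 0.133). Pgd, which makes the second NADPH of the branch, was at 963, 949 and 919 CPM with PBS and at 852, 900.4 and 909 CPM with Tβ-MCA, without overlap (log2 fold change -0.09 ± 0.06). Taldo1 was at 578, 652 and 627 CPM with PBS and at 637, 733 and 642 CPM with Tβ-MCA, with overlap. All 3 genes of the non-oxidative branch had positive log2 fold changes with Tβ-MCA (0.12 to 0.16), and none passed.

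The 34 members did not move as one within a library. With Tβ-MCA, replicate 3 had 7 members above and 16 below the range of the 3 PBS samples, replicate 4 had 12 and 16, and replicate 5 had 4 and 13. GCA replicate 4 had 8 above and 15 below, and the other 5 TCA and GCA samples had 2 to 9 above and 5 to 16 below. TCA replicate 5, of a group with no called gene, had 2 above and 16 below. These counts have no share over all genes beside them, so they do not set the members apart from other genes. The 4 called members were chosen by comparing Tβ-MCA with PBS. Their place beyond the PBS range in each Tβ-MCA sample therefore adds no support. All 4 also lay beyond this range, in the direction called, in GCA replicate 4. In the other TCA and GCA samples 2 or 3 of the 4 did so. In PBS, TCA and GCA, replicate 3 was also the highest sample for Hk1, Hk2 and Gys1.

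**Figure D4:**
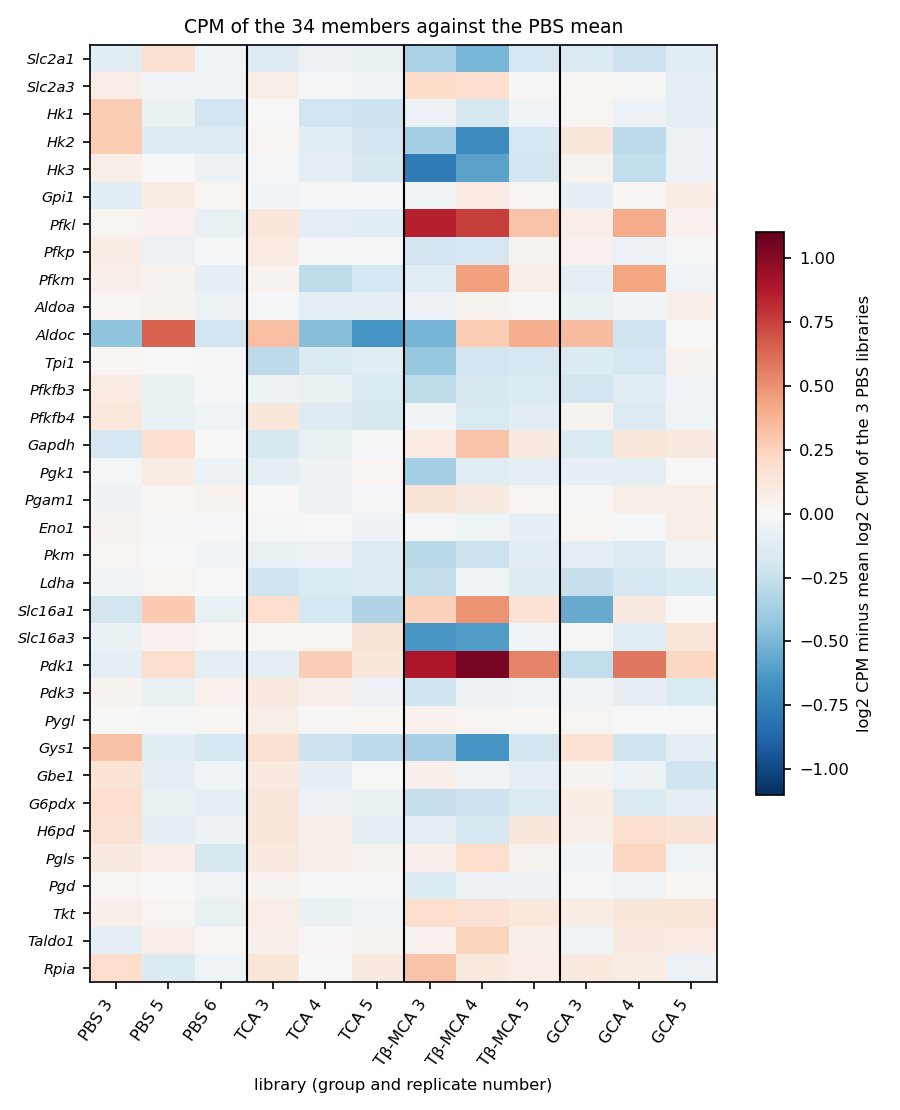
log2 CPM of the 34 members in the 12 libraries, minus the mean log2 CPM of the 3 PBS libraries (red higher, blue lower), with 1 row per gene and 1 column per library. Pfkl and Pdk1 are red, and Hk2, Hk3, Slc16a3 and Gys1 blue, in Tβ-MCA replicates 3 and 4, and the colours of Tβ-MCA replicate 5 are paler.

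Some markers of other cells were lower in the same libraries. The 12 monocyte and macrophage genes summed to 595, 753 and 2561 CPM with Tβ-MCA and to 2258 CPM in GCA replicate 4, against 3090 to 3796 CPM in PBS, TCA and the other GCA samples. The 6 eosinophil genes summed to 84.2, 58.3 and 131 CPM with Tβ-MCA, and all 3 lay below the PBS samples. The T and NK cell genes summed to 11.9 to 13.1 CPM with Tβ-MCA and to 13.4 to 13.9 CPM with PBS. The sums of the B cell, basophil and mast cell, and erythroid genes overlapped between Tβ-MCA and PBS. Of the neutrophil markers, 4 of 12 were called lower (Ly6g, S100a8, Mmp9 and Camp), beside 3.18% of all genes. The list summed to 41687 to 47118 CPM with Tβ-MCA. In edgeR's test, 1 of 12 monocyte and macrophage genes (Ly6c2), 1 of 7 B cell genes (Cd79a) and 1 of 6 eosinophil genes (Siglecf) were called, all lower. The share over all genes is again 3.18%. Of 7 genes of proliferating and immature cells none was called. The granule genes Mpo, Elane, Ctsg and Prtn3 of that list did not overlap between Tβ-MCA and PBS. They were at an unadjusted p under 0.05 in edgeR's test, beside 24.9% of all genes. Also without overlap, all lower, were 9 of 12 neutrophil, 9 of 12 monocyte and macrophage and 2 of 7 B cell genes. So were 2 of 6 eosinophil, 2 of 6 basophil and mast cell and 1 of 4 tested T and NK cell genes. Of 4 tested erythroid genes, 1 did not overlap and lay higher. Over all genes, 27.0% did not overlap. Mpo ranged from 32.3 to 154 CPM with Tβ-MCA and from 194 to 209 CPM with PBS, whereas Mki67 (means of 1925 and 1901 CPM) and Top2a (means of 609 and 570.4 CPM) overlapped. None of the lists had a gene at 0 in all samples. The part of these markers in the member results was not tested.

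TCA against PBS gave no called member (edgeR, 0% of all genes called), and DESeq2 called none of the members either. At an unadjusted p under 0.05 were 2 members, Tpi1 and Ldha, both with negative values, beside 3.26% of all genes. No member passed the 2-fold cutoff, which 0.465% of all genes passed. Tpi1, Pkm and Ldha did not overlap between the groups, which are 3 of 34 beside 9.67% of all genes. The log2 fold changes ranged from -0.29 (Aldoc) to 0.10 (Pdk1), and the 95% intervals of 33 of the 34 members, all but Aldoc, lay within a 1.5-fold change in either direction.

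GCA against PBS likewise gave no called member with edgeR (0% of all genes called) or DESeq2. Ldha alone was at an unadjusted p under 0.05, beside 3.53% of all genes, and no member passed the 2-fold cutoff, which 0.531% passed. Slc2a1, Ldha and Tkt did not overlap, which are 3 of 34 beside 9.55% of all genes. The intervals of 32 members lay within a 1.5-fold change, all but Aldoc and Pdk1, and the interval of Pdk1 was -0.20 to 0.62. Without GCA replicate 4, the log2 fold change of Pdk1 went from 0.21 to -0.00430, that of Pfkl from 0.18 to 0.06, and no member was called.

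GCA and TCA are the glycine and taurine conjugates of cholic acid. They were compared directly, as the only pair of bile acids with the same dose and time in the labels. None of the 34 members was called (edgeR, 0% of all genes called), none by DESeq2, and none was at an unadjusted p under 0.05 with edgeR, beside 2.46% of all genes. No member passed the 2-fold cutoff, which 0.442% passed, and 2 members, Pgam1 and Tkt, did not overlap, beside 8.0% of all genes. The 95% intervals of the difference lay within a 1.5-fold change for 32 members, all but Pfkm (-0.17 to 0.69) and Aldoc (-0.50 to 1.04). For Hk3 the interval was -0.26 to 0.26, for Pfkl -0.08 to 0.49, for Pdk1 -0.30 to 0.52 and for Pkm -0.13 to 0.14. These intervals bound the difference and do not show that the conjugates act alike. Side by side and untested, because the doses in the labels differ, the mean CPM of Pfkl was 193 with Tβ-MCA, 120.2 with TCA and 139 with GCA.

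Of 60 other genes of the same pathways, listed by hand, 49 were tested, and 5 were called with Tβ-MCA against PBS, all of them higher (10.2%, beside the 7.62% of all genes above). These were Epm2a, Pdk2, Gyg, Slc16a6 and Shpk. The median log2 fold change of the 49 genes was 0.06, beside 0.00411 over all genes. None was called with TCA or GCA against PBS or between GCA and TCA, by edgeR or DESeq2, and 1, 2 and 2 of the 49 had an unadjusted p under 0.05 in edgeR's test. Like the member calls, the 5 calls were lost without any 1 PBS sample or without Tβ-MCA replicate 3 or 4, fits in which at most 0.981% of all genes were called, with 10 to 13 of the 49 at an unadjusted p under 0.05. Without Tβ-MCA replicate 5, 10 were called, beside the 18.0% of all genes above.

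Epm2a encodes laforin, a phosphatase of glycogen. It was at 1.84, 2.15 and 2.29 CPM with PBS and at 7.21, 5.02 and 3.58 CPM with Tβ-MCA, and it alone of the 49 passed the 2-fold cutoff (log2 fold change 1.33 ± 0.30; edgeR, adjusted p = 0.0253). Gyg, or glycogenin, which primes glycogen synthesis, was at 30.0, 29.9 and 27.1 CPM with PBS and at 41.3, 46.0 and 32.9 CPM with Tβ-MCA (log2 fold change 0.47 ± 0.11; edgeR, adjusted p = 0.0278). Pdk2, a further pyruvate dehydrogenase kinase, was at 2.06, 2.29 and 1.62 CPM with PBS and at 3.23, 3.16 and 3.37 CPM with Tβ-MCA (log2 fold change 0.71 ± 0.19; edgeR, adjusted p = 0.034). Neither gene overlapped between the groups, and for Pdk2 the samples with GCA, at 2.93, 3.32 and 2.85 CPM, also lay above PBS (log2 fold change 0.61 ± 0.19; edgeR, adjusted p = 0.999). Slc16a6, a transporter of the monocarboxylate family, was at 66.7, 66.8 and 73.5 CPM with PBS and at 119, 99.9 and 77.2 CPM with Tβ-MCA (log2 fold change 0.51 ± 0.12; edgeR, adjusted p = 0.0266). Its exons overlap those of Amz2 and Arsg on the other strand and of Gm25540 on the same strand. Shpk, sedoheptulokinase, which feeds the non-oxidative branch, was at 2.04, 1.71 and 1.78 CPM with PBS and at 3.56, 3.70 and 2.68 CPM with Tβ-MCA (log2 fold change 0.85 ± 0.19; edgeR, adjusted p = 0.0238). Again the groups did not overlap for either gene.

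**Figure D5:**
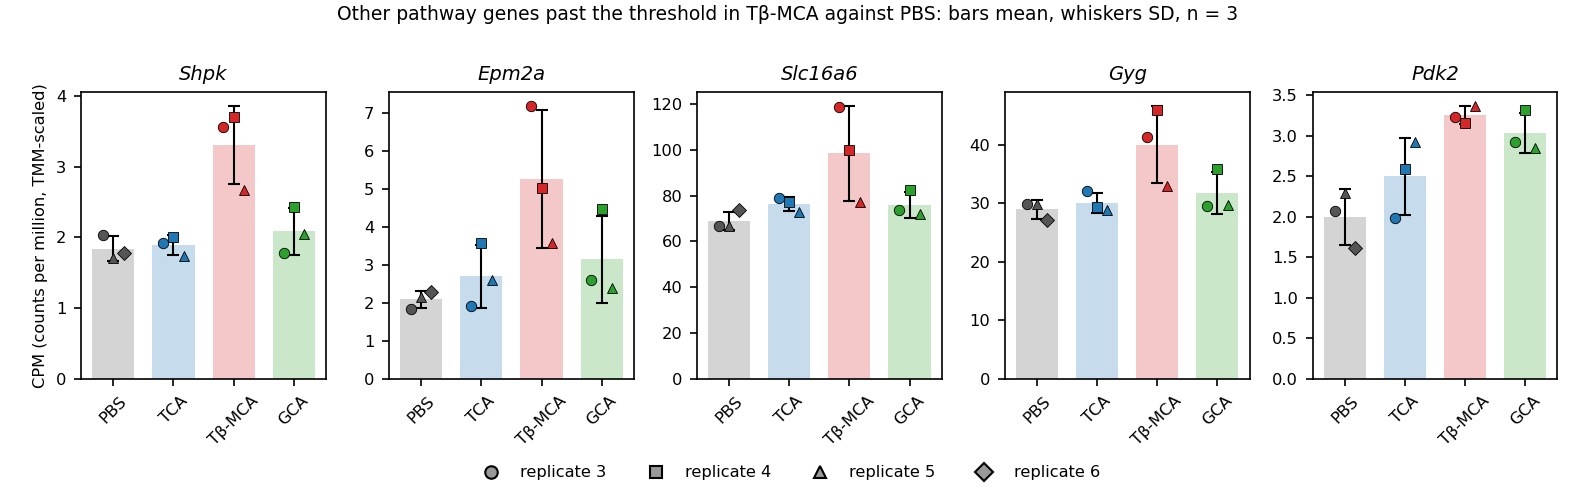
CPM of the 5 other pathway genes called with Tβ-MCA against PBS, with 1 panel per gene, bars for the mean, whiskers for the SD (n = 3) and a marker shape for each replicate number. All 3 Tβ-MCA points lie above the 3 PBS points in each panel, and for 4 of the 5 genes Tβ-MCA replicate 5 is the lowest Tβ-MCA point.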

How the data were processed

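RNA of 12 mouse neutrophil samples was sequenced with a stranded mRNA kit. Per the labels, the submitters' processing notes name Trimmomatic 0.36, STAR 2.5.3a, Subread 1.5.1 with featureCounts and the build GRCm38, and the authors deposited raw counts per gene, together with RPKM calculated from the deposited counts. The strand setting of the counting is not given in the sources used here. Columns headed GA were taken as the GCA samples.

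Counts were analysed in R 4.3.3 with edgeR 4.0.16 (TMM, filterByExpr by group, robust quasi-likelihood test over 12 samples, group as the only term) and Benjamini-Hochberg adjustment over 16761 genes, after a check on simulated data. Alternatives were DESeq2 1.42.0, total library size, no filter, only the groups compared, a replicate block and leaving out each sample. Values in every PBS and Tβ-MCA sample are given for members called, for the member with the highest RPKM in each role, and for the flux-setting enzymes. For some of these, TCA and GCA are given as ranges or left out. The members and lists were chosen with earlier results of these data known. Promoters were searched with Python 3.11.15, and near-identical transcripts (at least 95% identity over 100 bases) with blastn 2.17.0 on GENCODE. Of the 34 members, 14 have exons overlapping another gene and 9 have near-identical transcripts of another counted gene, where counts could be shared. A gene with 3 counts would be at 0.0725 to 0.0930 CPM, a limit that covers counting error only. Of the 60 other pathway genes listed, 59 were found in the count table by name, and Gys2 was not.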

Additional observations from a re-analysis of the deposited data

How the results depend on the processing

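With Tβ-MCA against PBS, the count of members called was 4, and of other pathway genes 5. DESeq2 called 9 and 7 (11.9% of all genes), no filter on low counts 7 and 9 (8.09%), total library size 4 and 7 (8.40%), and only the 2 groups compared 0 and 0 (edgeR, no gene of the table called, with 11 and 13 at an unadjusted p under 0.05 beside 21.7% of all genes). Leaving out 1 sample gave 0 to 9 members and 0 to 10 other genes, beside 0% to 18.0% of all genes. Leaving out Tβ-MCA replicate 5 and GCA replicate 4 together, an alternative added after seeing the data, gave 9 and 10 (17.9%). Same-numbered samples of different groups deviated from their group means with a correlation of 0.0597 to 0.326, over 0.1 in 12 of 15 pairs (mean 0.189), against a mean of -0.0716 and 7 of 39 pairs over 0.1 for different numbers, and 10 of the 11 samples with a same-numbered counterpart correlated best with their own number. This is a hint from the data, not from the design, since the labels tie no samples together. The numbers were taken as pairs only if every pair exceeded 0.1, so the block was kept as an alternative. With the replicate block, 5 members (Pdk1 higher; G6pdx, Pgk1, Pkm and Tpi1 lower) and 5 other genes were called (8.94% of all genes), and Pfkl and Hk3 were not (edgeR, adjusted p = 0.0621 and 0.144). With the replicate block and Tβ-MCA replicate 5 omitted, also added after seeing the data, 14 members (3 higher, 11 lower) and 9 other genes were called (20.7%). In the other 3 comparisons no member and no other pathway gene was called under any alternative. The values of Pfkl, Pdk1, Hk3 and Pkm kept their sign with Tβ-MCA in every alternative run. Reversed signs were as follows, and no value of reversed sign passed. Hk1, which is among them, was called lower with the replicate block and Tβ-MCA replicate 5 omitted. With Tβ-MCA, leave-one-out log2 fold changes ranged from -0.203 to 0.0529 for Hk1, from -0.0343 to 0.0610 for Gpi1 and from -0.0264 to 0.27 for Pfkm, which was -0.0118 with the block and Tβ-MCA replicate 5 omitted. With TCA against PBS, leaving out 1 sample gave -0.106 to 0.0170 for Pfkl, and the block gave -0.0829 for Pdk1. With GCA against PBS, leaving out 1 sample gave -0.00430 to 0.40 for Pdk1, and leaving out both libraries gave -0.00294. Between GCA and TCA, leaving out 1 sample gave -0.0701 to 0.0802 for Hk3, -0.0263 to 0.0301 for Pkm and -0.11 to 0.30 for Pdk1, and Hk3 was 0.000493 with DESeq2, 0.00896 with total library size and 0.000545 with no filter. The cause was not tested.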
